A study of Mus musculus with 24 samples.

Results

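The genes described here copy DNA, supply its building blocks and drive or restrain the cell cycle. They are 40 named genes grouped around Rrm1, the large subunit of ribonucleotide reductase, and were read through every array probe that carries their symbol. The array holds a probe for 36 of the 40 (65 probes), while Mki67, Ccnb1, Aurkb and Cdk4 have none in the probe table used. The brightest probe stands for each gene, and 31 of the 36 genes passed the filter on dim probes, out of 11114 genes tested in all.

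RNA from mouse brain was hybridised to Illumina bead arrays, 24 in all. The knockout (KO) groups, labelled Nestin THAP1 KO, are cerebellum, cortex and striatum at postnatal day 21 with 4 arrays each. The control groups, labelled Nestin Con, are the same 3 regions at the same age with 4 arrays each. The design text counts 4 conditional Thap1 KO mice and 4 mice it calls WT. With 12 arrays per genotype, arrays of different regions then share animals, but the labels do not tie arrays to mice. The fit therefore treats arrays as independent, and p-values measure the spread between these arrays. The labels do not say whether the controls carry the Cre transgene. A Nestin-driven Cre acts in the neural lineage, so microglia and endothelium would keep the gene.

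The THAP1 protein binds DNA through a zinc finger, and its loss of function causes an inherited dystonia in people. In human endothelial cells it binds the RRM1 promoter and regulates pRB and E2F target genes of the G1 to S transition. A cell commits to division when D and E cyclins with their kinases inactivate the Rb protein and release E2F factors, which switch on the helicase, clamp and nucleotide genes. At this age most neurons no longer divide. Oligodendrocyte precursors, progenitors of the wall of the lateral ventricle beside the striatum and the last precursors of cerebellar granule cells still do. Several of these genes also act in cells that do not divide, among them the cyclins D1 and D2 and the inhibitors p21 and p57.

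The promoter windows of 4 genes are printed from RefSeq (assembly GRCm38.p6), from 250 bases before to 50 bases after the start, on the gene's strand, 5′ to 3′. Capitals mark the letters TNNNGGCA, the core of the THAP1 site, in Rrm1 and Rpa2, the letters TTTGAA (the cell cycle homology region, CHR) in Plk1, and the E2F letters TTTCGCGC or TTTGGCGC in Mcm5, each searched on both strands. Rrm1 is shown as the known target, and Mcm5 as an example of the E2F letters. Rpa2 and Plk1 are shown as genes whose KO difference passed the test only with regions averaged, and the Plk1 call was fragile.
Rrm1, chr7:102441445-102441744, plus strand: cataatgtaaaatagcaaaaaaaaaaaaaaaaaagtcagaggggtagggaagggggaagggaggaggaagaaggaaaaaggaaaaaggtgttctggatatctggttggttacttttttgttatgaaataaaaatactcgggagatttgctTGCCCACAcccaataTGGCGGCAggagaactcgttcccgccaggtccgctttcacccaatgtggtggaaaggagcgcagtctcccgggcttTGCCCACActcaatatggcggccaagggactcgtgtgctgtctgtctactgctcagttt
Rpa2, chr4:132768110-132768409, plus strand: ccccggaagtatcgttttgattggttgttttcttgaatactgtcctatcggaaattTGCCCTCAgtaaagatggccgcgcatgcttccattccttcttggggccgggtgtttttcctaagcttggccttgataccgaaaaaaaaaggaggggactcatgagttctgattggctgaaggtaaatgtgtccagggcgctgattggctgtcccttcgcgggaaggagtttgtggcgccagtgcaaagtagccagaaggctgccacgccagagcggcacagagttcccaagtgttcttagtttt
Plk1, chr7:122159185-122159484, plus strand: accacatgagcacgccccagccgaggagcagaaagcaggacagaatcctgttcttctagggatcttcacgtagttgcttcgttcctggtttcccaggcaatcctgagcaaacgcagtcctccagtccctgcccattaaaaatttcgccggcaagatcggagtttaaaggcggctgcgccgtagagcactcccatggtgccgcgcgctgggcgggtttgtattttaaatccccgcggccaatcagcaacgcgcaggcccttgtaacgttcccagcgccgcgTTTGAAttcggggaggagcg
Mcm5, chr8:75109259-75109558, plus strand: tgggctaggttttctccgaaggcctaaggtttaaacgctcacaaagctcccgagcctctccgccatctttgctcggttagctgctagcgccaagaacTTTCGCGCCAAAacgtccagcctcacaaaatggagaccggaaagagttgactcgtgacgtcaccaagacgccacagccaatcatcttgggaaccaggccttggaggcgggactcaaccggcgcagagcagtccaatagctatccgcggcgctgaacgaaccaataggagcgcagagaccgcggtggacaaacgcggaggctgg

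The Rrm1 window held the THAP1 letters 3 times, beginning 100, 85 and 9 bases before the start, 1 on the given strand and 2 on the other, with no overlap. A stretch of 24 bases stands in this window at 2 places, beginning 102 and 11 bases before the start, and the copies match at 22 bases. The copies read as follows, with the THAP1 letters of the window in capitals (a match runs on past the end of the first copy).
first copy: ctTGCCCACAcccaataTGGCGGC
second copy: ttTGCCCACActcaatatggcggc
The Rpa2 window held the THAP1 letters once, on the other strand, and the Plk1 window held them 0 times. These letters were in 42% of 32851 windows and in 13 of the 34 windows of 30 members found in the table, so they are common in windows of this length. The E2F letters were in 0.813% of all windows and in 5 member windows, those of Cdk1, Mcm3, Mcm5, Mcm6 and Mcm7. In Mcm5 the 2 matches overlap, 1 on each strand. TTTGAA was in 17.9% of windows and in 11 member windows, and CCAAT in 37.4% and 23. A match is a description of these letters and not a binding site.

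The mean raw intensity of the arrays ran from 287 to 570, both in control striatum, and 47.2% to 54.5% of probes were detected (detection p under 0.01). Of the 3 probes for Thap1, ILMN_2603593 was detected on 0 of 12 KO and 8 of 12 control arrays, ILMN_2907066 on 1 KO and 10 control arrays, and ILMN_1258989 on 12 KO and 10 control arrays. The place of each probe relative to the deleted part was not examined. Markers of the regions followed the labels. The 7 tested cerebellar markers averaged 10.13 in KO and 10.32 in control cerebellum, with no other group above 5.65. The 3 tested cortical markers averaged 8.15 in KO and 7.96 in control cortex, with no other group above 5.61. The 5 tested striatal markers averaged 10.65 in KO and 10.80 in control striatum, 9.32 and 9.44 in cortex, and 5.84 and 5.98 in cerebellum.

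Detection was uneven over the members. Of the 36 genes with a probe, 14 were detected on all 24 arrays, 17 on some and 5 on none. The 14 were Rrm1, the helicase subunits Mcm4 and Mcm5, the spindle checkpoint gene Mad2l1, the cyclins Ccnd1, Ccnd2, Ccnd3 and Ccne1, the kinase Cdk2, the inhibitors Cdkn1a (p21) and Cdkn1c (p57), Rb1, E2f1 and E2f4. The 5 genes detected on no array were the mitotic cyclins Ccna2 and Ccnb2, the ubiquitin-conjugating enzyme Ube2c of mitotic exit, the G1 kinase Cdk6 and the inhibitor Cdkn1b (p27). They were left out of the tests and have no value here. An array detected between 17 and 27 of the members. Values below are log2 of background-corrected, quantile-normalised intensity plus 16, so differences of dim genes are understated and levels of different probes are not compared.

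**Figure D1:**
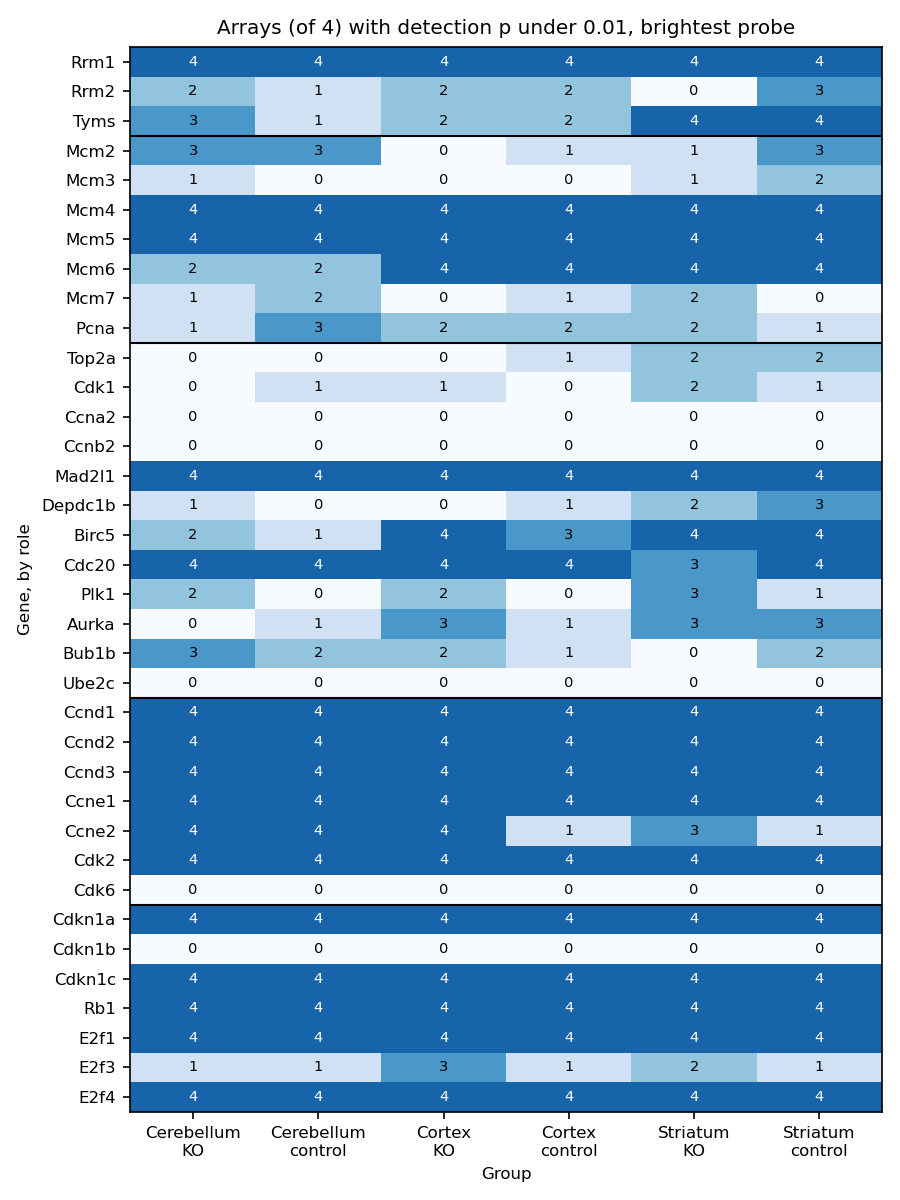
Detection of the 36 cell cycle and replication genes. Each cell gives how many of the 4 arrays of a group had a detection p under 0.01 for the gene's brightest probe, with genes down the page by role and groups across. Rrm1 and 13 other genes were detected on all 24 arrays, and Ccna2, Ccnb2, Ube2c, Cdk6 and Cdkn1b on none.

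KO differences of these genes passed the test about as rarely as those of all genes. Among 31 members, 0 passed the test in KO cerebellum, 0 in KO cortex and 0 in KO striatum (limma, Benjamini-Hochberg threshold 0.05), against 0.234%, 0.549% and 0.54% of all genes. At an unadjusted p under 0.05 there were 2, 2 and 3 members, against 5.38%, 10.5% and 7.4% of all genes. The median difference over members, KO minus control on the log2 scale, was 0.027 in cerebellum (0.006 over all genes), 0.009 in cortex (0.007) and -0.02 in striatum (0.017). Without regard to sign, the median difference over members was 0.139 in cerebellum (0.107 over all genes), 0.089 in cortex (0.131) and 0.159 in striatum (0.117). Single fitted differences, values below detection included, lay between -0.26 and 0.49 in cerebellum, -0.44 and 0.50 in cortex, and -0.56 and 0.37 in striatum. With the 3 regions averaged, Plk1 alone passed (1 of 31 members, against 2.31% of all genes). Each averaged p-value below treats arrays of the 3 regions as independent and does not allow for shared mice. Of the 5 roles, nucleotide supply had 0 of 3 members called in each region, helicase and clamp 0 of 7, mitosis 0 of 9, G1 cyclins and kinases 0 of 6, and inhibitors, Rb and E2F 0 of 6.

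**Figure D2:**
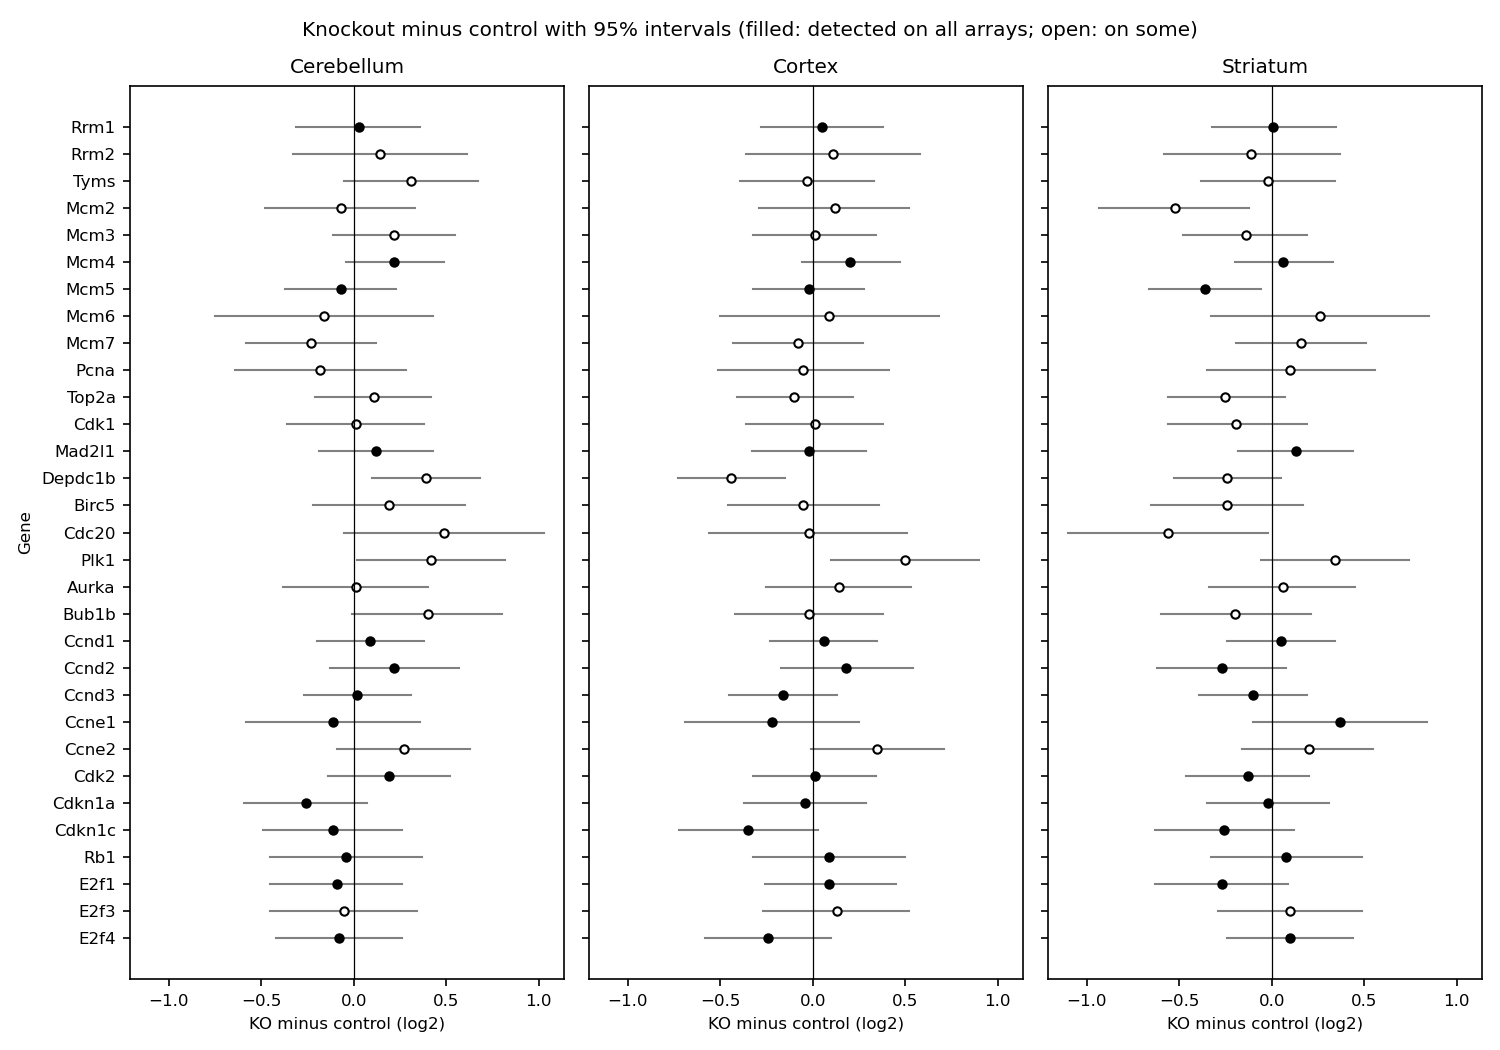
KO minus control of the 31 tested genes in each region. The x axis is the log2 difference, points are fitted differences and bars their 95% intervals, filled where the gene was detected on all 24 arrays and open where on some. Most intervals cross 0, and Rrm1 sits at 0.03, 0.05 and 0.01.

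Rrm1 makes deoxyribonucleotides together with Rrm2, and was detected on all 24 arrays (probe ILMN_2977624). In the cerebellum, Rrm1 read 6.72, 6.99, 7.03 and 7.02 in KO arrays, against 6.78, 6.77, 7.28 and 6.83 in control arrays (log2 normalised intensity). In the cortex, Rrm1 read 6.79, 6.64, 6.28 and 6.76 in KO arrays, against 6.40, 6.24, 6.99 and 6.64 in control arrays. In the striatum, Rrm1 read 6.83, 6.79, 6.66 and 6.66 in KO arrays, against 6.73, 6.81, 6.86 and 6.50 in control arrays. The genotypes overlapped in all 3 regions. The group means were 6.94 ± 0.15 in KO and 6.91 ± 0.24 in control cerebellum, 6.62 ± 0.23 and 6.57 ± 0.33 in cortex, and 6.74 ± 0.09 and 6.72 ± 0.16 in striatum (SD, n = 4 each). The fitted fold of KO over control had a 95% interval of 0.809 to 1.28 in cerebellum, 0.821 to 1.3 in cortex and 0.801 to 1.27 in striatum, and 0.893 to 1.17 averaged over the regions (adjusted p = 0.93). The sign of the cerebellar difference turned to -0.14 when arrays were scaled to a common median, a setting that moved the median of all genes there to -0.104. Leaving out 1 array at a time gave differences between -0.021 and 0.149 in cerebellum, -0.062 and 0.19 in cortex, and -0.062 and 0.059 in striatum. Across regions Rrm1 was ordered cerebellum, striatum, cortex in both genotypes, and no neighbouring pair differed by the test. The control cerebellum minus cortex difference was 0.34 (adjusted p = 0.0867).

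**Figure D3:**
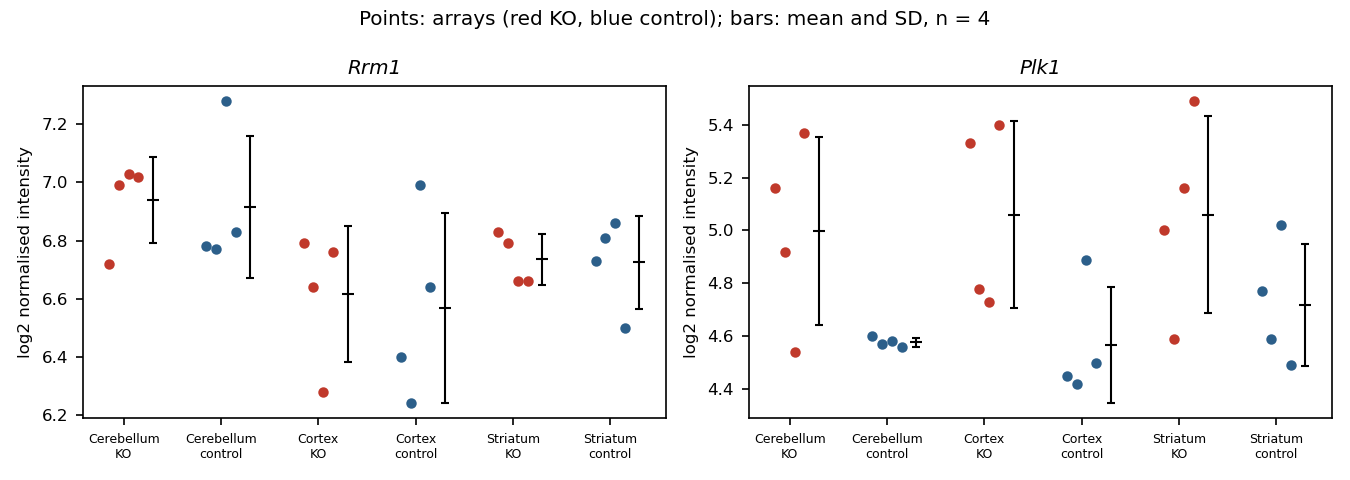
Rrm1 and Plk1 on each array. The y axis is log2 normalised intensity, points are arrays (red KO, blue control), and bars give the mean and SD of 4 arrays. Both genes overlapped between genotypes in every region. The 4 control cerebellum arrays of Plk1 lay between 4.56 and 4.60, all below detection, and KO cerebellum array 23 was at 4.54.

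The other nucleotide genes were dim. Rrm2, the regulated small subunit, was detected on 2 of 4 KO and 1 of 4 control arrays of cerebellum, 2 and 2 of cortex, and 0 and 3 of striatum. Its differences were 0.14 in cerebellum and 0.11 in cortex, and in striatum control over KO was at least 1.03-fold (adjusted p = 0.971). Tyms, which makes thymidylate, was detected on 16 arrays, with differences of 0.31, -0.03 and -0.02.

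Plk1, the Polo-like kinase that drives entry into and exit from mitosis, was the member whose KO difference passed when regions were averaged (probe ILMN_1255053). In the cerebellum, Plk1 read 5.16, 4.92, 4.54 and 5.37 in KO arrays, against 4.60, 4.57, 4.58 and 4.56 in control arrays. In the cortex, Plk1 read 5.33, 4.78, 4.73 and 5.40 in KO arrays, against 4.45, 4.42, 4.89 and 4.50 in control arrays. In the striatum, Plk1 read 5.00, 4.59, 5.16 and 5.49 in KO arrays, against 4.77, 4.59, 5.02 and 4.49 in control arrays. At least 1 KO array overlapped the controls in every region. The probe was detected on 2, 2 and 3 of 4 KO arrays in cerebellum, cortex and striatum, against 0, 0 and 1 control arrays. By group means against the floor of detected probes, KO over control was at least 1.06-fold in cerebellum and at least 1.03-fold in cortex. The mean difference was 0.42 (SE 0.11, 95% interval 0.19 to 0.65, adjusted p = 0.0455). Its size rests in part on control values below detection. No single region passed (adjusted p = 0.875 in cerebellum, 0.321 in cortex and 0.762 in striatum).

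The Plk1 call was fragile. It was lost with median scaling (adjusted p = 0.052), with no filter on dim probes (0.0609) and in the authors' processed values (0.133), and on leaving out 17 of the 24 arrays in turn (differences of 0.372 to 0.471 over all 24, adjusted p up to 0.0941). It was past the threshold without KO cerebellum array 23, KO cortex array 14 or 15, control cortex array 11, KO striatum array 5 or 6, or control striatum array 3. Without background correction the difference was 0.12 and with an offset of 50 it was 0.20, both past the threshold. Beside it, 7 tested markers of mature oligodendrocytes averaged 11.67 in KO and 11.89 in control cerebellum, 11.13 and 11.85 in cortex, and 11.30 and 12.14 in striatum. The 4 arrays of a group ranged from 11.53 to 11.77 against 11.70 to 12.00 in cerebellum, 10.81 to 11.41 against 11.65 to 12.02 in cortex, and 10.93 to 11.81 against 12.00 to 12.35 in striatum, with all 7 markers detected. Their part in the KO results was not tested. In bulk tissue, fewer cells of a type and less RNA per cell cannot be told apart.

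Depdc1b, a gene of mitotic and adhesion control in human cells, separated the genotypes in opposite directions in 2 regions. In the cerebellum, Depdc1b read 5.03, 4.68, 4.93 and 4.82 in KO arrays, against 4.44, 4.58, 4.57 and 4.31 in control arrays. In the cortex, Depdc1b read 4.51, 4.55, 4.40 and 4.40 in KO arrays, against 5.03, 4.91, 4.72 and 4.95 in control arrays. In the striatum, Depdc1b read 4.83, 5.01, 4.53 and 4.79 in KO arrays, against 5.29, 4.71, 5.05 and 5.08 in control arrays. All KO arrays lay above all controls in cerebellum and below them in cortex, while striatum overlapped. It was 1 of 31 members with no overlap in cerebellum (2.77% of all genes), 1 of 3 in cortex (8.18%), and 0 of the 2 in striatum (3.79%). The probe was near the limit of detection, on 1 KO and 0 control arrays in cerebellum and 0 KO and 1 control in cortex. The means were 4.87 in KO and 4.47 in control cerebellum (adjusted p = 0.667), with no fold above the floor of detected probes. They were 4.46 in KO and 4.90 in control cortex (adjusted p = 0.181), and control over KO was at least 1.01-fold by group means against that floor. The fitted difference between the 2 KO effects, which uses these values below detection, was 0.83 (unadjusted p = 0.000277, adjusted p = 0.99). Over the 3 tests of a KO effect between regions, 0 of 31 members passed, against 0.009% of all genes in each. At an unadjusted p under 0.05 the members numbered 1 for cerebellum minus cortex, 3 for cerebellum minus striatum and 1 for cortex minus striatum, against 3.9%, 3.6% and 4.35% of all genes.

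The other members whose arrays separated were below the test. Mcm2 and Mcm5, subunits of the replicative helicase, had striatal differences of -0.52 (adjusted p = 0.438) and -0.36 (adjusted p = 0.516). Mcm2 did not overlap and Mcm5 did. Cdc20, which activates the anaphase-promoting complex, was at -0.56 in striatum (adjusted p = 0.659), also without overlap, and its other 2 tested probes were at -0.04 and 0.14. Ccne2, cyclin E2, was at 0.35 in cortex (adjusted p = 0.488), detected on 4 KO arrays against 1 control array. Ccnd2, cyclin D2, was at 0.18 there (adjusted p = 0.788), and neither overlapped. The E2F and Rb genes Rb1, E2f1, E2f3 and E2f4 spanned -0.27 to 0.13 over the 3 regions.

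Wider lists of the same pathways, which exclude the members, hold 160 genes, of which 96 were tested. They cover nucleotide supply (12 tested), origin licensing and forks (33), mitosis and spindle (17), G1 to S control (17) and p53 and stress arrest targets (17). In KO against control, 0 of 96 passed in cerebellum, 1 in cortex and 0 in striatum, and 2 passed with regions averaged, 1 higher and 1 lower, against 0.234%, 0.549%, 0.54% and 2.31% of all genes. These counts lie near the background. The median difference of the 96 was 0.02, 0.01 and 0.03 in the 3 regions.

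The gene that fell was Rpa2, a subunit of the protein that coats single-stranded DNA at forks and repair sites (probe ILMN_2602687, detected on all 24 arrays). In the cerebellum, Rpa2 read 5.57, 5.66, 5.73 and 5.73 in KO arrays, against 6.28, 5.97, 6.28 and 6.27 in control arrays. In the cortex, Rpa2 read 5.73, 5.90, 5.62 and 5.95 in KO arrays, against 6.49, 6.65, 5.96 and 6.13 in control arrays. In the striatum, Rpa2 read 5.69, 5.59, 5.66 and 5.69 in KO arrays, against 6.33, 5.86, 5.98 and 6.69 in control arrays. Every KO array lay below every control array of its region. The mean difference was -0.53 (SE 0.1, adjusted p = 0.00188). No single region passed, at -0.53 in cerebellum (adjusted p = 0.499), -0.56 in striatum (adjusted p = 0.21) and -0.51 in cortex (adjusted p = 0.198). The averaged call held under each of the 8 alternative settings and without each array in turn, at -0.571 to -0.478 without 1 array. A second Rpa2 probe was detected on 1 array and was not tested.

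The gene that rose was Cdc7, the kinase that fires licensed origins (probe ILMN_1238374, detected on all 24 arrays). In the cortex, Cdc7 read 7.83, 7.64, 7.78 and 7.71 in KO arrays, against 7.14, 7.37, 7.09 and 7.03 in control arrays. In the cerebellum, Cdc7 read 8.99, 9.54, 9.36 and 9.30 in KO arrays, against 9.28, 9.49, 9.02 and 9.25 in control arrays. In the striatum, Cdc7 read 8.54, 8.46, 8.69 and 8.95 in KO arrays, against 8.42, 8.58, 8.31 and 8.29 in control arrays. The genotypes did not overlap in cortex, and did in cerebellum and striatum. The cortical difference was 0.58 (SE 0.13, adjusted p = 0.0331) and the averaged one 0.29 (SE 0.08, adjusted p = 0.0342). The cerebellar and striatal ones were 0.04 (adjusted p = 0.999) and 0.26 (adjusted p = 0.691), and the cerebellar effect minus the cortical one was -0.55 (adjusted p = 1). The cortical call was lost without KO arrays 13, 14, 15 or 16 or control arrays 9, 11 or 12 (adjusted p up to 0.124), with median scaling (0.0556), without background correction (0.105) and with an offset of 50 (0.0588). The averaged call was lost without any of 13 arrays (adjusted p up to 0.0733), with median scaling (0.164) and without background correction (0.0678).

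Levels across regions in control mice differed far more than levels between genotypes. Members past the test numbered 10 of 31 for cerebellum minus cortex (6 higher and 4 lower, against 23.9% and 21.8% of all genes), 14 for cerebellum minus striatum (8 higher and 6 lower, against 20.8% and 20.5%) and 8 for cortex minus striatum (5 higher and 3 lower, against 13.1% and 16%). Either way, 45.6%, 41.2% and 29.1% of all genes passed, and the members' shares were 32.3%, 45.2% and 25.8%, so the last 2 lay near the background and the first below it. With median scaling the third split was 3 higher and 1 lower, while 2323 of 11114 genes passed, against 3234 under the main settings. Without overlap there were 10, 15 and 7 members, against 40.9%, 35.3% and 27.2% of all genes. The members with the largest differences by size were Ccnd2, Cdkn1c, E2f1, Cdkn1a and Ccne2.

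**Figure D4:**
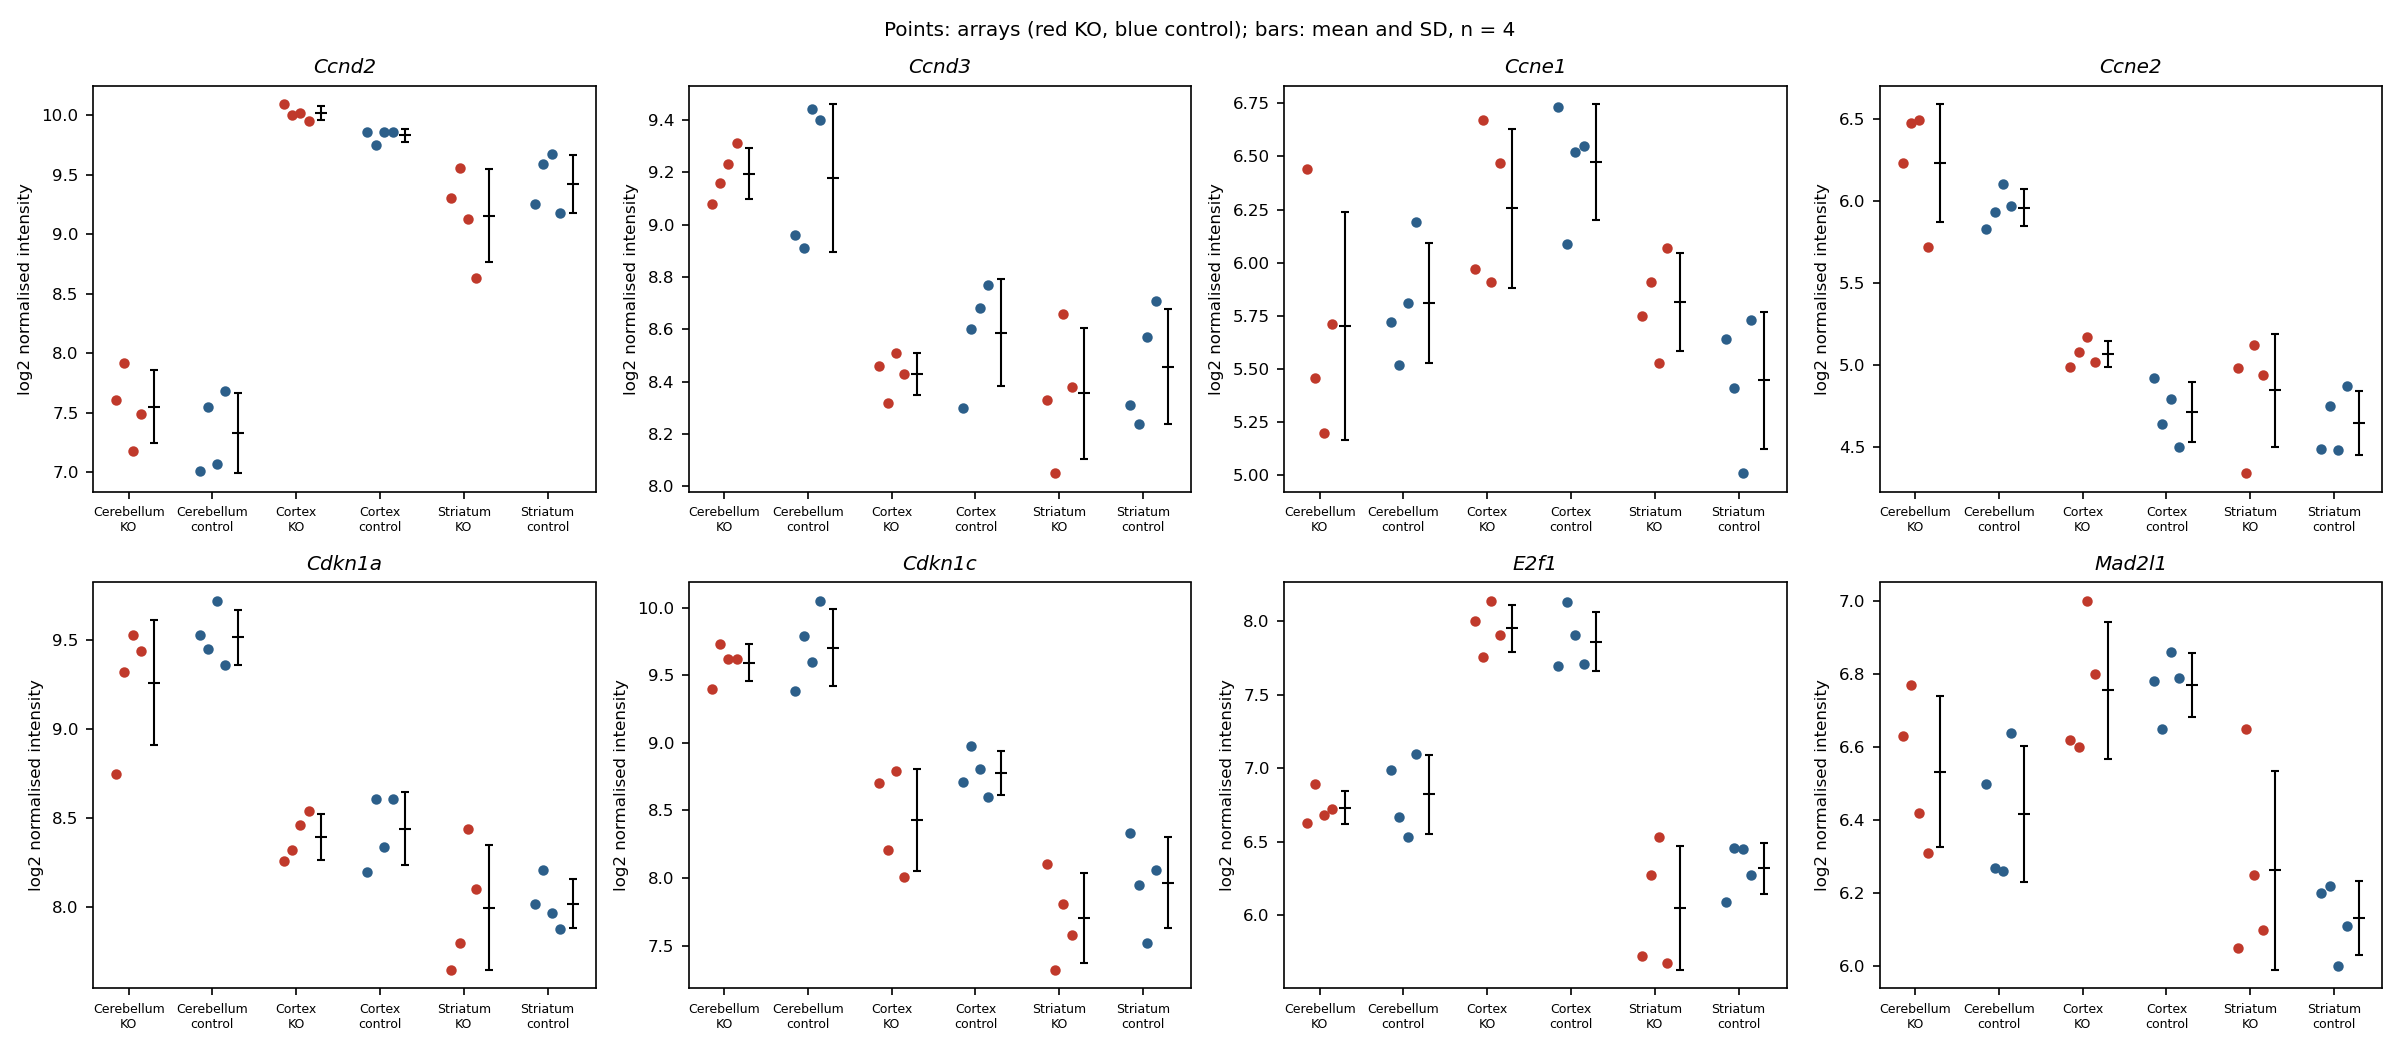
Regional levels of Ccnd2, Ccnd3, Ccne1, Ccne2, Cdkn1a, Cdkn1c, E2f1 and Mad2l1. Each panel plots log2 normalised intensity per array by group (red KO, blue control), with the mean and SD of 4 arrays. Ccnd2 lies between 7.01 and 7.92 on the cerebellar arrays and at 8.63 or more on every other array, and E2f1 is highest in cortex.

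Cyclin D2, encoded by Ccnd2, drives G1 in neural progenitors and is also kept in some mature neurons. In the cerebellum, Ccnd2 read 7.61, 7.92, 7.18 and 7.49 in KO arrays, against 7.01, 7.55, 7.07 and 7.68 in control arrays. In the cortex, Ccnd2 read 10.09, 10.00, 10.02 and 9.95 in KO arrays, against 9.86, 9.75, 9.86 and 9.86 in control arrays. In the striatum, Ccnd2 read 9.30, 9.56, 9.13 and 8.63 in KO arrays, against 9.25, 9.59, 9.67 and 9.18 in control arrays. Every cerebellar array lay below every array of the other 2 regions. The difference in controls was -2.51 for cerebellum minus cortex (SE 0.17, adjusted p = 7.58e-13) and -2.1 for cerebellum minus striatum (adjusted p = 3.45e-11). The cortex minus striatum difference of 0.41 did not pass (adjusted p = 0.0744).

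Cyclin D3, encoded by Ccnd3, ran the other way. In the cerebellum, Ccnd3 read 9.08, 9.16, 9.23 and 9.31 in KO arrays, against 8.96, 8.91, 9.44 and 9.40 in control arrays. In the cortex, Ccnd3 read 8.46, 8.32, 8.51 and 8.43 in KO arrays, against 8.30, 8.60, 8.68 and 8.77 in control arrays. In the striatum, Ccnd3 read 8.33, 8.05, 8.66 and 8.38 in KO arrays, against 8.31, 8.24, 8.57 and 8.71 in control arrays. Cerebellar arrays lay above all others. The control differences were 0.59 against cortex (adjusted p = 0.00111) and 0.72 against striatum (adjusted p = 0.000141). The 2 dimmer Ccnd3 probes gave 0.45 and -0.14 against striatum, neither past the test.

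Ccnd1, cyclin D1, had no regional call on its brightest probe, with control differences of -0.15, -0.06 and 0.08. The dimmest probe gave 0.66 for cerebellum minus cortex, -0.79 for cerebellum minus striatum and -1.44 for cortex minus striatum, all past the test over probes. It was detected on 19 arrays. The other probe, detected on all 24, gave -0.15, -0.06 and 0.09, so the dimmest probe alone departs from the brightest.

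The 2 E cyclins, which partner Cdk2 at the start of S phase, differed in their pattern. In the cerebellum, Ccne2 read 6.23, 6.47, 6.49 and 5.72 in KO arrays, against 5.83, 5.93, 6.10 and 5.97 in control arrays. In the cortex, Ccne2 read 4.99, 5.08, 5.17 and 5.02 in KO arrays, against 4.92, 4.64, 4.79 and 4.50 in control arrays. In the striatum, Ccne2 read 4.98, 4.34, 5.12 and 4.94 in KO arrays, against 4.49, 4.75, 4.48 and 4.87 in control arrays. Ccne2 was higher on every cerebellar array than on any forebrain array. The control differences were 1.24 against cortex (adjusted p = 8.93e-07) and 1.31 against striatum (adjusted p = 4.42e-07), with 4 of 4 control arrays detected in cerebellum against 1 of 4 in each other region. In the cerebellum, Ccne1 read 6.44, 5.46, 5.20 and 5.71 in KO arrays, against 5.72, 5.52, 5.81 and 6.19 in control arrays. In the cortex, Ccne1 read 5.97, 6.67, 5.91 and 6.47 in KO arrays, against 6.73, 6.09, 6.52 and 6.55 in control arrays. In the striatum, Ccne1 read 5.75, 5.91, 5.53 and 6.07 in KO arrays, against 5.64, 5.41, 5.01 and 5.73 in control arrays. Ccne1 was highest in control cortex. Control cortex minus striatum was 1.03 (adjusted p = 0.00103), and it was 0.44 in KO arrays (adjusted p = 0.171). Control cerebellum minus cortex was -0.67 (adjusted p = 0.0187), and that call was lost with median scaling (0.099) and without control cerebellum array 18 (0.065) or control cortex array 9 (0.0617).

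The kinase inhibitors p21 and p57 were both highest in cerebellum. In the cerebellum, Cdkn1a read 8.75, 9.32, 9.53 and 9.44 in KO arrays, against 9.53, 9.45, 9.72 and 9.36 in control arrays. In the cortex, Cdkn1a read 8.26, 8.32, 8.46 and 8.54 in KO arrays, against 8.20, 8.61, 8.34 and 8.61 in control arrays. In the striatum, Cdkn1a read 7.65, 7.80, 8.44 and 8.10 in KO arrays, against 8.02, 8.21, 7.97 and 7.88 in control arrays. For Cdkn1a the control differences were 1.08 for cerebellum minus cortex (adjusted p = 2.31e-06) and 1.5 for cerebellum minus striatum (adjusted p = 7.86e-09). The other 2 Cdkn1a probes gave 1.4 and 0.85 against striatum. The cortex minus striatum difference of 0.42 (adjusted p = 0.0492) was lost without 16 of 24 arrays and under 8 of 9 other settings. In the cerebellum, Cdkn1c read 9.40, 9.73, 9.62 and 9.62 in KO arrays, against 9.38, 9.79, 9.60 and 10.05 in control arrays. In the cortex, Cdkn1c read 8.70, 8.21, 8.79 and 8.01 in KO arrays, against 8.71, 8.98, 8.81 and 8.60 in control arrays. In the striatum, Cdkn1c read 8.10, 7.32, 7.81 and 7.58 in KO arrays, against 8.33, 7.95, 7.52 and 8.06 in control arrays. Cdkn1c stepped down through the regions. It was 0.93 for cerebellum minus cortex (adjusted p = 0.000112), 1.74 for cerebellum minus striatum (adjusted p = 5.26e-09) and 0.81 for cortex minus striatum (adjusted p = 0.00115), all in controls.

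E2f1, an activating E2F, was highest in cortex. In the cerebellum, E2f1 read 6.63, 6.89, 6.68 and 6.72 in KO arrays, against 6.99, 6.67, 6.53 and 7.10 in control arrays. In the cortex, E2f1 read 8.00, 7.76, 8.14 and 7.91 in KO arrays, against 7.70, 8.13, 7.91 and 7.71 in control arrays. In the striatum, E2f1 read 5.72, 6.27, 6.53 and 5.67 in KO arrays, against 6.09, 6.46, 6.45 and 6.27 in control arrays. No cortex array overlapped another region. The control differences were -1.04 for cerebellum minus cortex (adjusted p = 1.31e-05) and 1.54 for cortex minus striatum (adjusted p = 7.13e-08). Cerebellum minus striatum was 0.5 (adjusted p = 0.0208), a call lost without control arrays 17 or 20 of cerebellum or 1 of striatum (adjusted p of 0.065, 0.0824 and 0.07). Rb1 (0.69, adjusted p = 0.00603) and E2f4, a repressive E2F (0.6, adjusted p = 0.00419), were higher in control cerebellum than in control striatum. The dimmer Rb1 probe gave 0.39, not past the test.

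Helicase subunits gave smaller and mixed differences. In the cerebellum, Mcm4 read 8.52, 8.75, 8.50 and 8.37 in KO arrays, against 8.41, 8.39, 7.91 and 8.53 in control arrays. In the cortex, Mcm4 read 8.22, 8.06, 8.03 and 7.89 in KO arrays, against 7.80, 7.90, 8.02 and 7.68 in control arrays. In the striatum, Mcm4 read 8.21, 8.49, 8.47 and 8.38 in KO arrays, against 8.22, 8.30, 8.49 and 8.29 in control arrays. Control cortex was the lowest for Mcm4. Control cerebellum minus cortex was 0.46 (adjusted p = 0.00447) and control cortex minus striatum was -0.47 (adjusted p = 0.00632), the second lost with median scaling (0.0706) and not past the test in KO arrays (-0.33, 0.0597). In the cerebellum, Mcm2 read 5.04, 5.00, 5.30 and 4.76 in KO arrays, against 5.31, 4.49, 5.52 and 5.09 in control arrays. In the cortex, Mcm2 read 4.89, 4.39, 4.70 and 4.72 in KO arrays, against 4.97, 4.28, 4.62 and 4.36 in control arrays. In the striatum, Mcm2 read 4.90, 4.60, 4.58 and 4.38 in KO arrays, against 4.95, 5.53, 4.98 and 5.09 in control arrays. Mcm2 was dim, detected on 3, 1 and 3 of 4 control arrays. Its control differences were 0.54 for cerebellum minus cortex (adjusted p = 0.026) and -0.58 for cortex minus striatum (adjusted p = 0.0276). The first was lost without control arrays 17, 19, 10 or 12 (adjusted p up to 0.118). The second was lost without control arrays 10, 12 or 2 (up to 0.117), with median scaling (0.0586) and in the authors' values (0.203). Mcm5 was higher in control cerebellum than in striatum (0.48, adjusted p = 0.00913).

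Of 9 tested genes of mitosis, 4 were lower and 0 higher in control cerebellum than in control striatum, against 20.5% and 20.8% of all genes. In the cerebellum, Birc5 read 5.26, 4.91, 4.54 and 5.37 in KO arrays, against 4.79, 4.70, 5.18 and 4.66 in control arrays. In the cortex, Birc5 read 5.17, 5.24, 5.29 and 5.18 in KO arrays, against 5.39, 4.79, 5.22 and 5.69 in control arrays. In the striatum, Birc5 read 5.73, 5.57, 5.61 and 5.56 in KO arrays, against 6.31, 5.98, 5.37 and 5.76 in control arrays. Birc5 is survivin, of the chromosomal passenger complex. It was detected on 1 of 4 control cerebellum arrays and 4 of 4 control striatum arrays. Its control differences were -1.02 for cerebellum minus striatum (adjusted p = 0.000115) and -0.58 for cortex minus striatum (adjusted p = 0.0278). A second probe, detected on 4 of the 24 arrays, gave -0.54 for cerebellum minus striatum. The cortex minus striatum call was lost without control arrays 10, 11, 1 or 2 (adjusted p up to 0.132), with no filter (0.0568) and with probes averaged (0.0684). In the cerebellum, Top2a read 4.30, 4.83, 4.42 and 4.54 in KO arrays, against 4.43, 4.43, 4.38 and 4.42 in control arrays. In the cortex, Top2a read 4.66, 4.73, 4.71 and 4.45 in KO arrays, against 5.06, 4.77, 4.67 and 4.44 in control arrays. In the striatum, Top2a read 5.05, 4.70, 4.89 and 4.74 in KO arrays, against 5.06, 5.46, 4.82 and 5.04 in control arrays. Top2a, topoisomerase II of dividing cells, was detected on 0 of 4 control cerebellum arrays and 2 of 4 control striatum arrays. Striatum over cerebellum was at least 1.14-fold (adjusted p = 0.000724). Depdc1b, not detected in control cerebellum, was lower there than in cortex (means of 4.47 and 4.90, adjusted p = 0.0141, no fold above the floor) and striatum (adjusted p = 0.00194, striatum over cerebellum at least 1.09-fold). The first Depdc1b call was lost without control cerebellum array 20 (0.0508) and in the authors' values (0.736).

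The mitotic kinase gene Aurka and the thymidylate gene Tyms were also lower in control cerebellum than in striatum (-0.49, adjusted p = 0.0387 and -0.54, adjusted p = 0.0139). Each was detected on 1 of 4 control cerebellum arrays, against 3 control striatum arrays for Aurka and 4 for Tyms. The other 2 tested Tyms probes gave 0.19 and 0.05, so the Tyms probes disagree. Mad2l1, of the spindle checkpoint, was the mitotic member that was higher in cortex. In the cerebellum, Mad2l1 read 6.63, 6.77, 6.42 and 6.31 in KO arrays, against 6.50, 6.27, 6.26 and 6.64 in control arrays. In the cortex, Mad2l1 read 6.62, 6.60, 7.00 and 6.80 in KO arrays, against 6.78, 6.65, 6.86 and 6.79 in control arrays. In the striatum, Mad2l1 read 6.05, 6.65, 6.25 and 6.10 in KO arrays, against 6.20, 6.22, 6.00 and 6.11 in control arrays. All control cortex arrays lay above all control striatum arrays. Control cortex minus striatum was 0.64 (adjusted p = 0.00184), lost only with median scaling (0.0547) among the 9 settings and 24 omissions run.

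Of 3 marker lists named after dividing cell types, those of oligodendrocyte precursors and of stem cells and neuroblasts had their lowest averages in cerebellum. That of granule precursors had its highest average there. These averages do not measure how many cells divide. The 6 tested oligodendrocyte precursor markers averaged 7.36 in control cerebellum (arrays 7.23 to 7.51), 7.77 in control cortex (7.55 to 7.94) and 8.37 in control striatum (8.32 to 8.40), and 6 of 6 were lower in control cerebellum than in control striatum. Of them C1ql1 was not detected in control cerebellum. The 7 tested stem cell and neuroblast markers averaged 5.34 in control cerebellum (5.16 to 5.49), 6.14 in control cortex (6.11 to 6.22) and 6.69 in control striatum (6.59 to 6.79), with Dlx1, Dlx2 and Sox4 not detected in control cerebellum. Of these 7, 3 were called lower and 1 higher in control cerebellum than in cortex, and 4 lower and 1 higher than in striatum. Of all genes, 21.8% were lower and 23.9% higher than in cortex, and 20.5% and 20.8% than in striatum. The 3 tested granule precursor markers, Barhl1, Ptch1 and Zic1, averaged 7.99 in control cerebellum (7.76 to 8.16), 5.44 in cortex (5.37 to 5.47) and 6.56 in striatum (6.21 to 6.98). Atoh1, Gli1 and Mycn were below the filter. Zic1 is also among the cerebellar tissue markers, so this average does not tell precursors apart from other cerebellar cells. The part of the 3 lists in the regional differences was not tested. In KO arrays the precursor markers averaged 7.33, 7.66 and 8.11, the stem cell markers 5.42, 6.20 and 6.66, and the granule precursor markers 7.87, 5.51 and 6.42.

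The regional pattern was measured again in the KO arrays, which share no array with the controls. Members past the test numbered 10, 14 and 5, against 44.4%, 41.5% and 25.2% of all genes. Called in both genotypes with the same sign were 7 for cerebellum minus cortex (70% of each list), 11 for cerebellum minus striatum (78.6% of each) and 3 for cortex minus striatum (37.5% of the control list and 60% of the KO list). The same counts were not made over all genes, so these shares have no background beside them and are not a trait of the members. Ccnd2 differed by -2.47 and -1.6 in KO cerebellum minus KO cortex and striatum. Ccne2 differed by 1.17 and 1.39, Cdkn1a by 0.86 and 1.26, Cdkn1c by 1.17 and 1.89, and Ccnd3 by 0.76 and 0.84. E2f1 differed by -1.22 in KO cerebellum minus KO cortex and by 1.91 in KO cortex minus KO striatum.

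Some members passed in 1 genotype only. In the controls these were Mcm2 and Ccne1 for cerebellum minus cortex, Tyms, Top2a and Depdc1b for cerebellum minus striatum, and Mcm2, Mcm4, Birc5, Ccne1 and Cdkn1a for cortex minus striatum. In the KO arrays they were Mcm6 and Cdc20, then Mcm6, Cdc20 and the checkpoint kinase gene Bub1b, and last Mcm5 and Ccnd2. Mcm6 differed by -0.91 and -1.12 for KO cerebellum minus KO cortex and striatum, and by -0.67 and -0.7 in controls. It was detected on 2 of 4 cerebellar arrays of each genotype. Its other tested probe gave -0.39 and -0.43 in KO arrays, neither past the test. Cdc20 differed by 0.79 and 1.08 in KO arrays and by 0.28 and 0.04 in controls. Its other 2 tested probes gave 0.6 and 0.63, and 0.47 and 0.51, in KO arrays, none past the test. Depdc1b passed for cerebellum minus cortex in both genotypes with opposite signs, higher in KO (adjusted p = 0.021) and lower in control arrays (adjusted p = 0.0141), each time with 1 region below detection. No member passed the direct test of a KO effect between regions, so none is shown to differ by genotype.

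**Figure D5:**
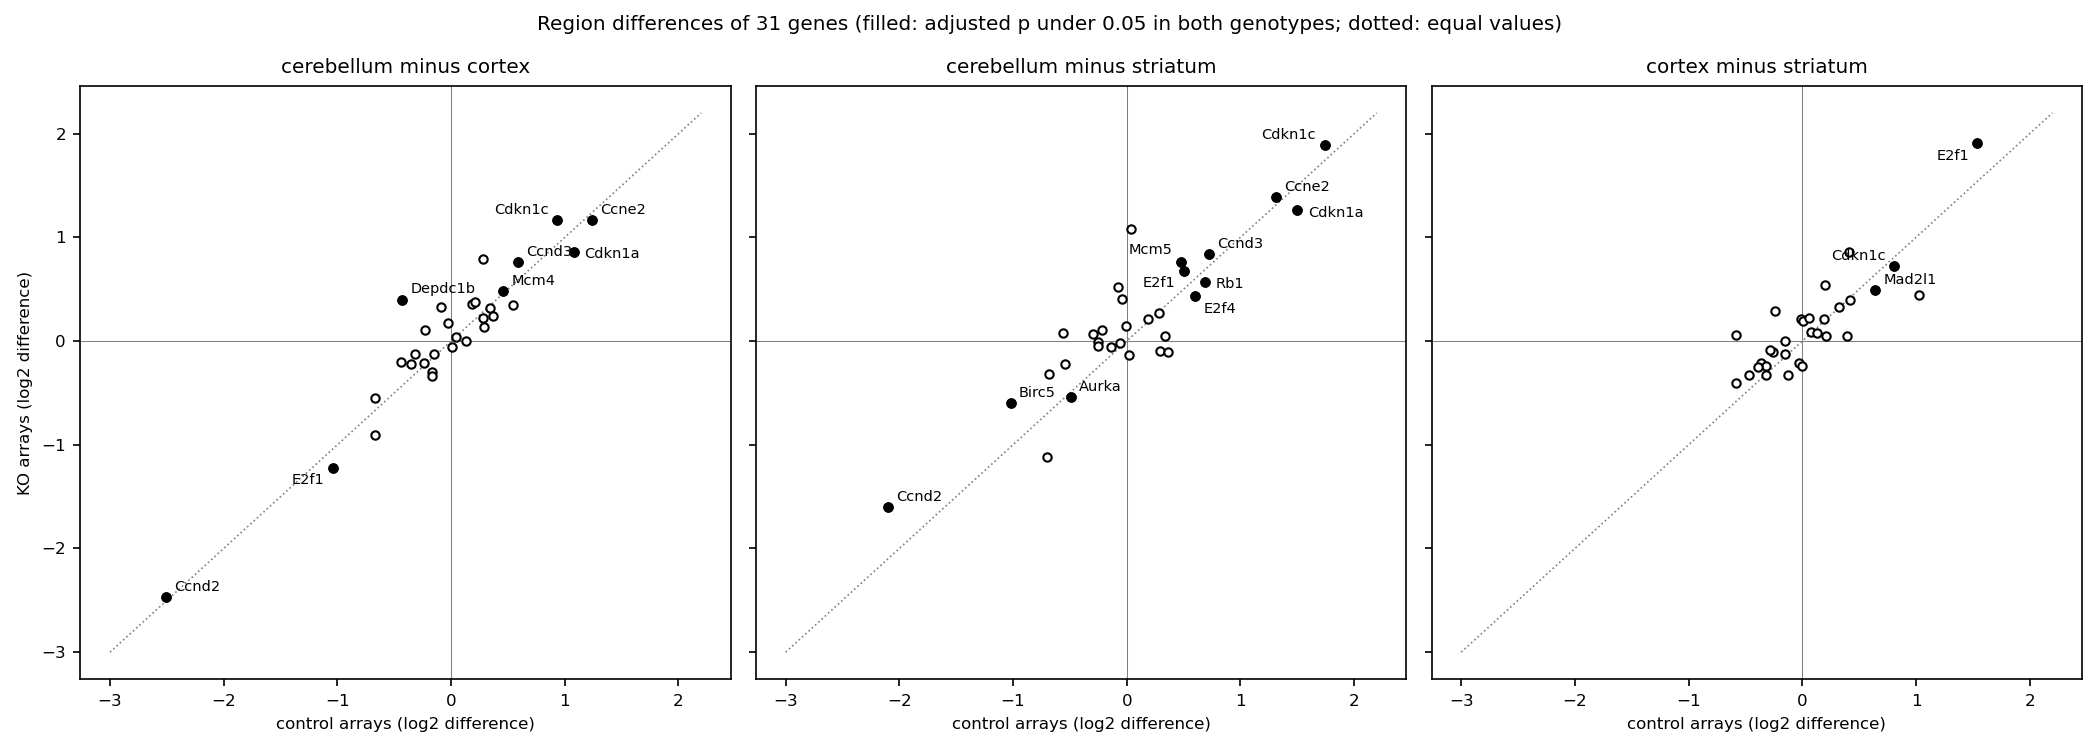
Regional differences in KO arrays (y axis) against control arrays (x axis), in log2 units, for 31 genes in 3 region pairs. Filled points passed the test in both genotypes and are named, and the dotted line marks equal values. Most filled points lie near the line, while Depdc1b lies in the upper left of the first panel.

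Of the 96 wider pathway genes, 24 were higher and 15 lower in control cerebellum than in cortex, 25 and 13 in cerebellum than in striatum, and 13 and 16 in cortex than in striatum. Of all genes, 23.9% and 21.8%, 20.8% and 20.5%, and 13.1% and 16% were called in the same order, so most of these counts lie near the background. Cdc7 differed by 2.1 (adjusted p = 9.53e-14), 0.86 (3.91e-06) and -1.24 (2.37e-08) in these comparisons. Among genes of nucleotide supply, Samhd1, which breaks deoxyribonucleotides down, was higher in cerebellum than in cortex by 1.39 (adjusted p = 6.53e-07) and than in striatum by 0.65 (0.00672). Dctpp1, which clears damaged dCTP, differed by -0.67 (0.00182) for cerebellum minus cortex and 1.01 (4.02e-05) for cortex minus striatum. Among fork genes, the polymerase delta gene Pold1 differed by 1.22 (8.78e-06) and the clamp loader gene Rfc5 by -1.16 (6.04e-06) for cerebellum minus cortex. Rpa1 was higher in cerebellum than in striatum by 0.69 (4.08e-06), and Uhrf1, which maintains DNA methylation at forks, was at least 1.65-fold higher in striatum than in cerebellum (4.45e-05).

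Among wider mitosis genes, the centromere histone gene Cenpa differed by -2.03 (adjusted p = 4.67e-11) for control cerebellum minus cortex and by 1.24 (1.69e-06) for cortex minus striatum. The mitotic kinase gene Pbk was not detected in control cerebellum and was at least 1.76-fold higher in cortex (1.11e-06) and at least 1.97-fold higher in striatum (1.51e-07). The condensin gene Ncapd2 differed by 1.24 (1.3e-07) and 0.78 (0.000146), cerebellum minus cortex and minus striatum. Anln, of the cytokinetic ring and also known from myelin, differed by 1.16 (4.51e-06) for cerebellum minus striatum. In G1 control, Fbxw7, which marks cyclin E for breakdown, differed by -0.79 (5.76e-06), 0.59 (0.000353) and 1.38 (1.28e-09). Skp2, which marks p27 for breakdown, differed by 0.89 (6e-06) for cerebellum minus cortex and -0.64 (0.000828) for cortex minus striatum. The phosphatase gene Cdc25a differed by 1.29 (7.13e-06) and 1.07 (0.000109) for cerebellum minus cortex and minus striatum. Among p53 and arrest targets, the antiproliferative gene Btg1 differed by 2.36 (1.61e-15), 1.57 (1.41e-11) and -0.79 (1.44e-05), and Plk2, an activity-regulated kinase of neurons, by -2.65 (8.95e-12) for cerebellum minus cortex and -1.86 (1.14e-08) for cerebellum minus striatum.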

How the data were processed

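Total RNA of 24 mouse brain samples was hybridised to Illumina bead arrays and read with BeadStudio, per the submitters' processing notes. The deposited scanner table gives a raw intensity and a detection p-value per probe, and the deposited value table gives processed intensities with a normalization not given in the sources used here. Each column of the deposited value table has a median between 11.55 and 11.61. Gene symbols of 23978 of 25697 probes came from the platform annotation, 23971 matched RefSeq and 8 symbols were updated. The background was corrected from the detection p-values (normal plus exponential model, offset 16), values were quantile normalised and put on the log2 scale with limma 3.58.1 in R 4.3.3. Probes detected (p under 0.01) on fewer than 4 arrays were left out (14994 kept), and the brightest probe stood for a gene. limma with an intensity trend was fitted to 11114 genes over 6 groups, two-sided, with Benjamini-Hochberg adjustment over all genes. For a named gene not detected on any array of a group, the fold is a bound against the dimmest detected probes, while medians, ranges, plots, averages over regions and differences between KO effects use the fitted values. This bound uses group means, with undetected arrays of the other group included, and does not allow for their spread. For Rrm2 in striatum the bound is given as well, and the fitted KO minus control difference there was -0.11. The fit was tested on simulated data. The number of arrays limits the precision. The labels give no batch. The members, gene lists and tests were chosen with earlier results of these data known. Named members were Rrm1, those past a KO test and the 4 largest called differences in each direction for each pair of control regions. From wider lists, up to 3 called genes per comparison were named.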

Additional observations from a re-analysis of the deposited data

Results flagged for a closer look

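In 6 of 186 sets of 4 arrays of the tested genes, 1 array stood apart from the other 3 by Dixon's test, which chance alone gives in about 5% of sets. For Rrm1 this was KO cerebellum array 21, at 6.72 against 6.99 to 7.03, and control cerebellum array 19, at 7.28 against 6.77 to 6.83. In control cortex, Mcm3 was 4.70 on array 10 against 4.33 to 4.38, and Ccnd2 was 9.75 on the same array against 9.86 on each of the others. Cdk1 was 4.26 on control cortex array 12 against 4.65 to 4.70. Aurka was 4.65 on KO cortex array 13 against 5.05 to 5.12. Depdc1b was set apart because every KO array lay above the controls in cerebellum and below them in cortex. The 2 effects differed by 0.83 on the log2 scale, and that test, which uses values below detection, had an adjusted p of 0.99.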

How the results depend on the processing

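The count of 0 members for KO against control in each region, and for each KO effect between regions, was 0 under every alternative and without each array. With regions averaged the count was 0 with median scaling, with no filter on dim probes and in the authors' processed values, and 0 to 1 without 1 array. For control cerebellum minus cortex it was 9 to 12 without 1 array, and for cerebellum minus striatum 12 to 15. For control cortex minus striatum it was 4 with median scaling, 5 in KO arrays and 5 to 10 without 1 array, the lowest without control cortex array 10. Of 11114 genes, 3234 passed there under the main settings, 2323 with median scaling, 2797 in KO arrays and 2888 without control cortex array 10. Signs turned for Rrm1, at -0.14 in cerebellum with median scaling (all genes -0.104 there, and 0.127 in cortex) and -0.003 in cortex with array weights, and without 1 array down to -0.021, -0.062 and -0.062 in cerebellum, cortex and striatum and -0.007 averaged, with highest values of 0.149, 0.19, 0.059 and 0.077. In KO arrays in place of controls, an alternative chosen after seeing the data, Depdc1b was 0.402 for cerebellum minus cortex and 0.075 for cerebellum minus striatum, and Mcm2 was 0.06 for cortex minus striatum. The cause was not tested. Top2a for cerebellum minus striatum was not past the test in KO arrays (adjusted p = 0.0955). Ccnd2, Ccnd3, Ccne2 and Cdkn1c kept each call named for them in controls under every alternative. No paired analysis was possible because the groups share no replicate numbers and the labels do not tie arrays to mice. Signal over background limits Plk1, Depdc1b, Mcm2, Top2a and the other dim genes, whose values lie near the level of undetected probes.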
